A study of Mus musculus with 8 samples.

Results

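The inhibitory receptors of mast cells are surface proteins that dampen activation by IgE, and several sit in gene families whose other members activate. The set described here holds 10 receptor genes, taken by name from a fixed list: 8 listed as inhibitory and 2 activating relatives, Cd300lb and Cd200r3. The 10 are Cd300a, Cd300lf, Cd300lb, Pirb, Lilrb4a, Cd200r1, Cd200r3, Milr1, Cd33 and Siglecf. They are 10 of the 56748 gene identifiers in the count tables, and all 10 are among the 14942 genes that passed the filter on low counts and were tested. Transcripts were measured by mRNA sequencing of bone marrow-derived mast cells (BMMCs), grown with IL-3 from the marrow of C57BL/6 mice aged 6 to 8 weeks and sampled with no stimulation. In the Mettl3-RNP group (labelled Mettl3 KO, 4 libraries), the cells were electroporated with Cas9 ribonucleoproteins (RNPs) aimed at Mettl3, the catalytic subunit of the complex that writes N6-methyladenosine (m6A) on mRNA. In the Pulsed group (4 libraries), the cells were mock transfected and so received no Cas9. Loss of Mettl3 and the cutting of DNA by Cas9 therefore cannot be told apart. The edited cultures were sequenced as a mixture with the cells that escaped editing, and in such bulk RNA fewer cells expressing a receptor and less receptor RNA per cell cannot be told apart. Libraries of the same number, 1 to 4, were treated as a pair.

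In mast cells, aggregation of IgE on its receptor starts a cascade of tyrosine phosphorylation. Most inhibitory receptors carry in their cytoplasmic tail an immunoreceptor tyrosine-based inhibitory motif (ITIM), whose tyrosine, once phosphorylated, recruits the phosphatases SHP-1 (Ptpn6), SHP-2 (Ptpn11) or SHIP-1 (Inpp5d). Paired receptors have a similar extracellular part but a short tail, and signal through adapters such as DAP12 (Tyrobp). Cd200r1 has no ITIM and inhibits through the adapters Dok2 and Dok1.

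The coding sequences of the tails show which members carry the inhibitory motif and which do not. An ITIM was searched in the canonical protein-coding transcript of each gene (GENCODE M39, GRCm39) as a tyrosine with isoleucine, leucine, valine or serine at the second position before it and isoleucine, leucine or valine at the third position after it. The tail was taken as the residues after the most hydrophobic stretch of 19 residues beyond residue 40, on the Kyte-Doolittle scale. By this search 5 of the 10 members had at least 1 ITIM in the tail: Cd300a, Cd300lf, Lilrb4a and Siglecf had 2 each and Pirb had 3. Over the last 100 residues of the protein, a window that is the same for every gene, 6 members and 16.5% of the 21483 coding transcripts searched held the motif, the match in Cd200r3 lying outside its tail, so a match alone is a common event and is a description of these letters only. The codons of representative motifs follow, 5′ to 3′ on the coding strand in GRCm39, with the codon of the tyrosine in capitals, because this tyrosine is the residue through which the receptors signal.
Siglecf, tyrosine 538 (chr7:43008094-43008111, plus strand): ctccacTATgcctccctc
Siglecf, tyrosine 561 (chr7:43008163-43008180, plus strand): tctgtaTACacagagatc
Cd300a, tyrosine 262 (chr11:114790672-114790689, plus strand): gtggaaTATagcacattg
Cd300a, tyrosine 274 (chr11:114791973-114791990, plus strand): cttcacTATtcatccgtg
Cd300lf, tyrosine 241 (chr11:115008474-115008491, minus strand): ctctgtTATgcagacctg
Cd300lf, tyrosine 289 (chr11:115007938-115007955, minus strand): gtttcaTATgccgctctg
Pirb, tyrosine 794 (chr7:3715785-3715802, minus strand): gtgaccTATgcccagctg
Pirb, tyrosine 824 (chr7:3715695-3715712, minus strand): agtgtaTATgctactctg
Lilrb4a, tyrosine 300 (chr10:51372117-51372134, plus strand): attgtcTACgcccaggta
Lilrb4a, tyrosine 322 (chr10:51372290-51372307, plus strand): gtaaccTATgcccagttg
Cd200r1, tyrosine 297 of an NPxY motif (chr16:44614602-44614613, plus strand): aatccactcTAT

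The other members had none of these ITIMs in the tail. Cd200r1 carried instead the NPxY motif printed above, the kind of site that binds the phosphotyrosine-binding domain of Dok adapters. Cd300lb and Cd200r3 had short tails of 33 and 9 residues, beside 114 residues in Cd300a and 179 in Pirb. In both, the hydrophobic stretch held 1 basic residue, the kind of residue by which receptors pair with charged adapters such as DAP12, but it also held 1 in Cd33, Siglecf and Cd200r1, so the search did not set the short-tailed members apart by it. Cd33 and Milr1 had tails of 66 and 79 residues with no match to the ITIM or the NPxY motif. Both were listed as inhibitory, so this search alone does not mark them as such.

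The libraries held 32643260 to 45324826 counts each, with 21871 to 28483 genes detected. Levels are given as CPM, the counts per 1000000 counts, scaled with TMM factors, and a gene is called changed at an adjusted p of at most 0.05 with a fold change of at least 1.5. Mettl3 (chr14:52531551-52542608, minus strand) stood at 25.9, 24.5, 11.1 and 26.5 CPM in Pulsed 1 to 4 and at 12.3, 9.17, 4.88 and 9.19 CPM in Mettl3-RNP 1 to 4. It was lower in 4 of 4 pairs, with 40.9% ± 5.81 of the paired Pulsed level left (SD, n = 4), although Pulsed 3 lay below Mettl3-RNP 1. On the opposite strand 2308 of the 6765 exonic bases of Mettl3 overlap Tox4. Whether the counting used strand was not given in the sources used here. The BMMCs expressed all 10 genes of a mast cell marker list, including Kit at 4050 CPM and Fcer1a at 2599 CPM on average in the Pulsed group. Both libraries of replicate 3 stood apart in the immediate early gene Egr1, at 8644 and 10680 CPM against 26.3 to 2390 CPM in the other 6 libraries.

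The comparison asks which of these receptor transcripts differed in resting mast cells after Mettl3 depletion. Of the 10 receptors, 1 was called changed, Siglecf, which fell; among all tested genes 2.06% were called, 0.816% lower and 1.24% higher. With no limit on the fold, 1 member again passed, lower, beside 1.39% of all tested genes. The other 9 receptors were not called. Their 95% intervals lay between a fold of 0.609 and a fold of 1.47, so a change of 1.5-fold upward was outside the interval of each and a fall of that size was outside the interval of each but Cd300lb. In the fit 6 members were higher and 4 lower, with a median log2 fold change of 0.0048, beside -0.0013 over all tested genes. Siglecf was also the 1 member whose groups did not overlap, a pattern that 3.23% of all tested genes showed. The direction was the same in 4 of 4 pairs for 3 members, Siglecf, Cd300lb and Cd200r3, against 31.6% of all tested genes.

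**Figure D1:**
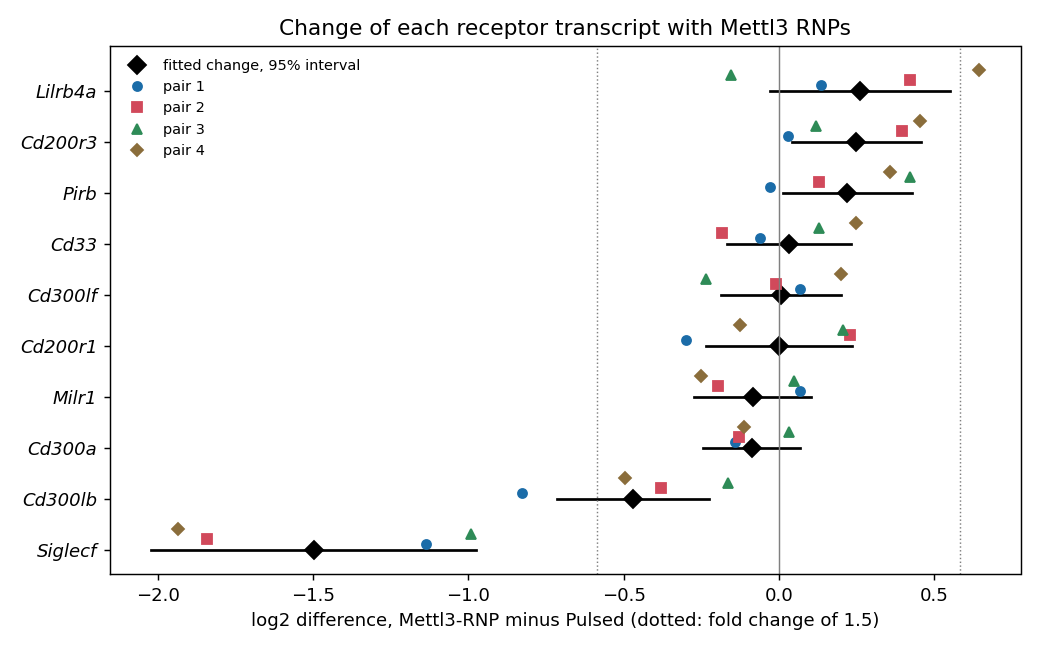
Log2 difference between Mettl3-RNP and Pulsed BMMCs for the 10 receptors (x axis, log2 CPM). Black diamonds with lines are the fitted change and its 95% interval, coloured symbols are the 4 pairs, and dotted lines mark a 1.5-fold change. Siglecf lies at -1.497 with all 4 pairs below the dotted line, Cd300lb at -0.47, and the other 8 receptors lie between -0.09 and 0.26.

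Siglecf (ENSMUSG00000039013, chr7:43000765-43008955, plus strand) encodes Siglec-F, an ITIM receptor for sialylated glycans best known from eosinophils. Its level was 5.14, 5.24, 3.38 and 3.42 CPM in Pulsed 1 to 4 and 2.31, 1.42, 1.67 and 0.854 CPM in Mettl3-RNP 1 to 4. Every Mettl3-RNP library was below every Pulsed library. These values rest on few reads, 125 to 201 counts per Pulsed library and 30 to 86 per Mettl3-RNP library. The group means were 4.29 ± 1.04 CPM in Pulsed and 1.56 ± 0.604 CPM in Mettl3-RNP BMMCs (SD, n = 4). On the log2 scale, Siglecf fell by 1.497 (SE 0.226), a fold of 0.354 with a 95% interval of 0.246 to 0.509 (edgeR quasi-likelihood test, adjusted p = 0.0199). Within pairs 36.6% ± 12.4 of the Pulsed level was left, from 25.0% to 49.5%. Leaving out replicate 2 gave -1.37 on the log2 scale with an adjusted p of 0.0976, and the fit without the replicate block gave -1.45 with an adjusted p of 0.722. The call was lost in both, with a fitted fall about as large.

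Because Siglecf also marks other myeloid cells, their markers were read in the same libraries. The 8 genes of an eosinophil list summed to 5.11 to 13.6 CPM in Pulsed and 3.17 to 10.02 CPM in Mettl3-RNP BMMCs, and Siglecf is itself on this list. The defining granule genes Prg3, Epx and Ear1 had 0 counts in every library. Among the 3 genes of the list that were tested, Siglecf fell. Ccr3, the eotaxin receptor, was also lower in 4 of 4 pairs, with a log2 fold change of -0.59 (adjusted p = 0.216). Il5ra, the IL-5 receptor chain, was higher in 4 of 4 pairs, with one of 0.41 (adjusted p = 0.173). A macrophage list of 10 genes summed to 2.65 to 5.04 CPM in Pulsed and 1.31 to 4.58 CPM in Mettl3-RNP libraries, with 9 of the 10 below 1 CPM in every library. Of that list 3 genes were tested and 1 of them, Adgre1, the gene of the F4/80 antigen, fell by 1.13 (adjusted p = 0.0435). The other two were also fitted lower and did not pass, the scavenger receptor Marco at -0.70 (adjusted p = 0.527) and Cd14 at -0.38 (adjusted p = 0.787). Adgre1 passed in none of the fits that left out 1 replicate number, with adjusted p from 0.0906 to 0.11 by edgeR, while its log2 fold change stayed between -1.297 and -1.03. The part of such cells in the fall of Siglecf was not tested.

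Cd33, the other Siglec of the set and a receptor for sialic acids on myeloid cells, lies close to Siglecf on the chromosome (chr7:43173634-43193875, minus strand). The proteins of Cd33 and Siglecf were 46.4% identical over their alignment. Cd33 stood at 174, 151, 99.4 and 133 CPM in Pulsed 1 to 4 and at 167, 133, 109 and 158 CPM in Mettl3-RNP 1 to 4. The groups overlapped, and the difference was positive in pairs 3 and 4 and negative in pairs 1 and 2. The fitted log2 fold change was 0.03 (SE 0.0862, adjusted p = 0.862), and its interval covered folds from 0.891 to 1.18. Per length of exon, the ratio of Siglecf to Cd33 was 0.103 ± 0.0139 in Pulsed and 0.0376 ± 0.0146 in Mettl3-RNP BMMCs (SD, n = 4), lower in each of the 4 pairs.

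The Cd300 members of the set, Cd300a, Cd300lb and Cd300lf, lie together on chromosome 11. Cd300lb (chr11:114813607-114825212, minus strand) encodes a receptor with a short tail that signals through DAP12. It stood at 149.9, 148, 36.7 and 97.8 CPM in Pulsed 1 to 4 and at 84.6, 114, 32.8 and 69.4 CPM in Mettl3-RNP 1 to 4. The Mettl3-RNP library was the lower one in 4 of 4 pairs, but the groups overlapped, with Mettl3-RNP 2 above Pulsed 4 and both libraries of replicate 3 below all others. Within pairs 73.3% ± 13.6 of the Pulsed level was left (SD, n = 4), from 56.4% to 89.2%. The fitted log2 fold change was -0.47 (SE 0.106), a fold of 0.722 with a 95% interval of 0.609 to 0.855. This missed the threshold by edgeR (adjusted p = 0.0538), and the fitted fall was smaller than 1.5-fold. The adjusted p was 0.0014 by DESeq2 and 0.0412 without replicate 3, but 0.147 without replicate 1, 0.159 without replicate 2, 0.137 without replicate 4 and 0.999 without the replicate block.

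Cd300a (chr11:114768840-114795480, plus strand), an ITIM receptor for phosphatidylserine and phosphatidylethanolamine, stood at 349.5, 269.5, 239.9 and 241 CPM in Pulsed 1 to 4. In Mettl3-RNP 1 to 4 it stood at 317, 246, 245 and 224 CPM. Its groups overlapped widely and its fitted log2 fold change was -0.09 (SE 0.0673, adjusted p = 0.505), with an interval of 0.845 to 1.05 in fold. Cd300lf (chr11:115007040-115024818, minus strand), an ITIM receptor that binds ceramide and phosphatidylserine, ranged from 141 to 181 CPM in Pulsed and from 127 to 179.8 CPM in Mettl3-RNP BMMCs. Its fitted log2 fold change was 0.01 (SE 0.084, adjusted p = 0.971), and the interval of the fold was 0.879 to 1.15. The ratio of Cd300lb to Cd300a per length of exon was 0.649 ± 0.282 in Pulsed and 0.495 ± 0.229 in Mettl3-RNP BMMCs (SD, n = 4) and was lower in 4 of 4 pairs. The ratio of Cd300lf to Cd300a averaged 0.555 in Pulsed and 0.594 in Mettl3-RNP BMMCs and was higher in 3 of 4 pairs.

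**Figure D2:**
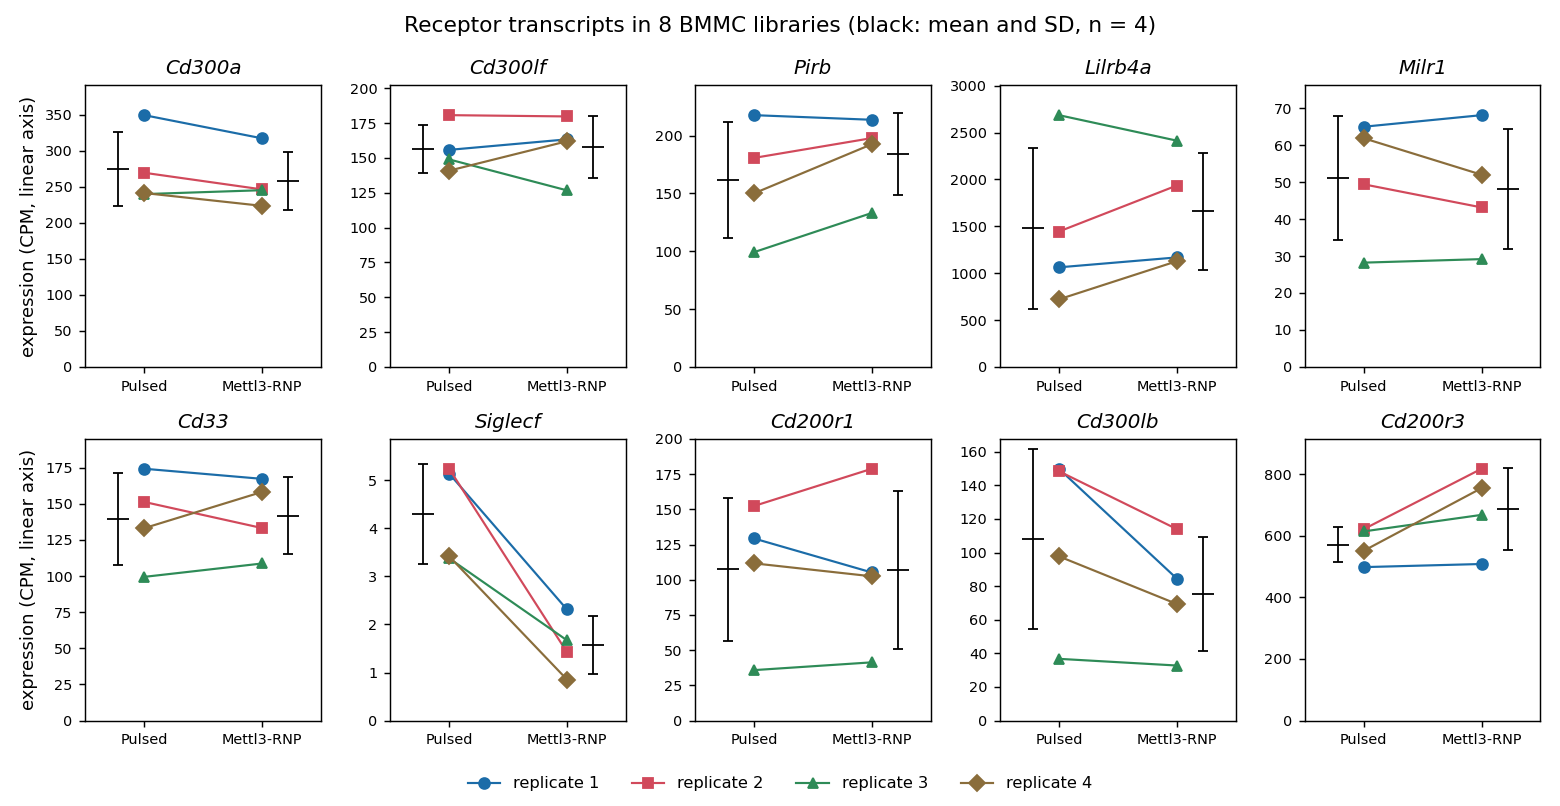
Expression of the 10 receptor transcripts (y axis, CPM, linear from 0) in Pulsed and Mettl3-RNP BMMCs, with lines joining libraries of the same replicate number and black bars giving the mean and SD of 4 libraries. Siglecf falls in all 4 pairs, from 3.38 to 5.24 CPM down to 0.854 to 2.31 CPM, and in Cd300lb, Cd200r1 and Milr1 both libraries of replicate 3 lie below the other 6.

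The Cd200 receptors likewise include an inhibitory and an activating member. Cd200r1 (chr16:44586096-44615343, plus strand) is the inhibitory receptor for CD200, a membrane glycoprotein of many tissues. It stood at 129, 152, 35.8 and 112 CPM in Pulsed 1 to 4 and at 105, 179, 41.4 and 102 CPM in Mettl3-RNP 1 to 4. Pairs 2 and 3 were higher and pairs 1 and 4 lower in the Mettl3-RNP library, and both libraries of replicate 3 were far below the others. The means were 107 ± 50.5 and 107 ± 56.3 CPM (SD, n = 4), the adjusted p was 0.994, and the interval of the fold was 0.851 to 1.18.

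Cd200r3 (chr16:44764041-44801743, plus strand), an activating relative found on mast cells and basophils that pairs with DAP12, stood at 498, 622, 614 and 552 CPM in Pulsed 1 to 4. In Mettl3-RNP 1 to 4 it stood at 509, 818, 668 and 755 CPM. The Mettl3-RNP library was the higher one in 4 of 4 pairs, by as little as 0.03 on the log2 scale in pair 1. The fitted log2 fold change was 0.25 (SE 0.090), with an interval of 1.03 to 1.37 in fold, and did not pass the adjusted test (adjusted p = 0.151 by edgeR, 0.0408 by DESeq2). The proteins of Cd200r1 and Cd200r3 were identical at 102 of 255 aligned residues. Cd200r1 was 73.0% identical to Cd200r4, a further activating relative, whose log2 fold change was -0.17 (adjusted p = 0.206). The ligand gene Cd200 was at 0.0274 to 1.10 CPM and did not pass the filter on low counts.

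Lilrb4a and Pirb belong to the leukocyte immunoglobulin-like receptors. Lilrb4a (chr10:51367027-51372707, plus strand), also known as gp49B, is an ITIM receptor that inhibits IgE-driven activation. It was the most abundant member, at 1063, 1445, 2686 and 721 CPM in Pulsed 1 to 4 and 1169, 1935, 2415 and 1128 CPM in Mettl3-RNP 1 to 4. The groups overlapped, with pair 3 lower and the other pairs higher in the Mettl3-RNP library. Its fitted log2 fold change was 0.26 (SE 0.125, adjusted p = 0.265), and the interval of the fold was 0.981 to 1.47. Its activating neighbour Lilrb4b encodes a protein 88.4% identical to it, 268 of 303 aligned residues, so reads can be split between them and the level of each is uncertain. Lilrb4b averaged 2155 CPM in Pulsed and 2452 CPM in Mettl3-RNP BMMCs (log2 fold change 0.28, adjusted p = 0.225). The ratio of Lilrb4a to Lilrb4b per length of exon was 0.718 ± 0.0638 in Pulsed and 0.707 ± 0.0562 in Mettl3-RNP BMMCs (SD, n = 4). In the current annotation Lilrb4a shares 1846 of 5252 exonic bases with the predicted gene Gm49339 on the same strand, which had at most 48 counts in a library.

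Pirb (chr7:3714408-3723416, minus strand) encodes an ITIM receptor for MHC class I molecules. It stood at 218, 181, 99.2 and 150.1 CPM in Pulsed 1 to 4 and at 214, 198, 133 and 193 CPM in Mettl3-RNP 1 to 4. In pair 1 the libraries were nearly level, and in the other 3 pairs the Mettl3-RNP library was higher. The fitted log2 fold change was 0.22 (SE 0.0897), a fold of 1.17 with an interval of 1.01 to 1.35, and did not pass the adjusted test (adjusted p = 0.198). Among genes of its ligands, B2m, the light chain of MHC class I, fell by 0.35 (SE 0.070, adjusted p = 0.0377), from 667 ± 46.1 to 522 ± 10.8 CPM (SD, n = 4), a change below 1.5-fold with no overlap of the groups. B2m was past the threshold in no fit that left out 1 replicate number, with adjusted p from 0.0747 to 0.2003. The heavy chain genes had log2 fold changes of -0.06 for H2-K1 (adjusted p = 0.681) and -0.02 for H2-D1 (adjusted p = 0.932).

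Milr1 (chr11:106642052-106659779, plus strand) encodes allergin-1, an inhibitory receptor of mast cells that restrains anaphylaxis. It stood at 64.95, 49.4, 28.2 and 61.8 CPM in Pulsed 1 to 4 and at 68.1, 43.1, 29.2 and 51.97 CPM in Mettl3-RNP 1 to 4. The groups overlapped over almost their whole range, and the replicate number set most of the spread. The fitted log2 fold change was -0.08 (SE 0.0815, adjusted p = 0.607), and the interval of the fold was 0.828 to 1.08. On the opposite strand 509 of its 5802 exonic bases overlap Polg2, a gene with 112 to 362 counts per library, and whether the counting used strand was not given in the sources used here.

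Levels of different receptors were compared per kilobase of exon. In Pulsed BMMCs Lilrb4a led with 282 ± 163 CPM per kb, followed by Cd200r3 with 95.5 ± 9.70 and Cd300a with 55.9 ± 10.5 (SD, n = 4). Cd300lb, Pirb, Cd200r1 and Cd300lf followed at 37.1, 35.3, 32.0 and 30.4 CPM per kb, with ranges that overlapped from each to the next. Cd33 was at 15.1 ± 3.41, Milr1 at 8.81 ± 2.87 and Siglecf last at 1.54 ± 0.371 CPM per kb. The ranges of neighbours in this order were apart between Lilrb4a and Cd200r3, Cd200r3 and Cd300a, Cd300lf and Cd33, and Milr1 and Siglecf, and overlapped elsewhere. In Mettl3-RNP BMMCs the first 3 and the last 3 kept their places, while Cd300lb moved behind Pirb, Cd200r1 and Cd300lf at 25.8 CPM per kb. With the length of the canonical transcript in place of all exons, an alternative chosen after the data were seen, Lilrb4a and Cd200r3 were still first and Siglecf last in both groups. Cd300lf then came before Cd300a in both groups, Milr1 came before Cd33 in Pulsed BMMCs only, and Cd300lb was in place 7 in both groups, so that its move depends on the length used.

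For most receptors the libraries differed chiefly by replicate number. The replicate number had an effect past the threshold for 8 of 10 members, beside 53.9% of all tested genes, and the exceptions were Siglecf (adjusted p = 0.126) and Cd300lf (adjusted p = 0.0997). The share of the variation in log2 CPM between libraries that lay between replicate numbers was 98.0% for Cd200r1, 96.9% for Milr1 and 92.9% for Cd300a. For Siglecf it was 17.7%, with 76.2% between the groups. Both libraries of replicate 3 were below the other 6 for 5 members, Cd200r1, Cd300lb, Milr1, Pirb and Cd33, a pattern shown by 21.1% of all tested genes. Cd200r1 in replicate 3 averaged 29.7% of its level in the other 6 libraries, and Cd300lb 31.4%. Lilrb4a went the other way, at 2415 to 2686 CPM in replicate 3 against 721 to 1935 CPM in the other libraries, and 22.2% of all tested genes had replicate 3 above the rest. The part of the raised Egr1 of that replicate in these levels was not tested.

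**Figure D3:**
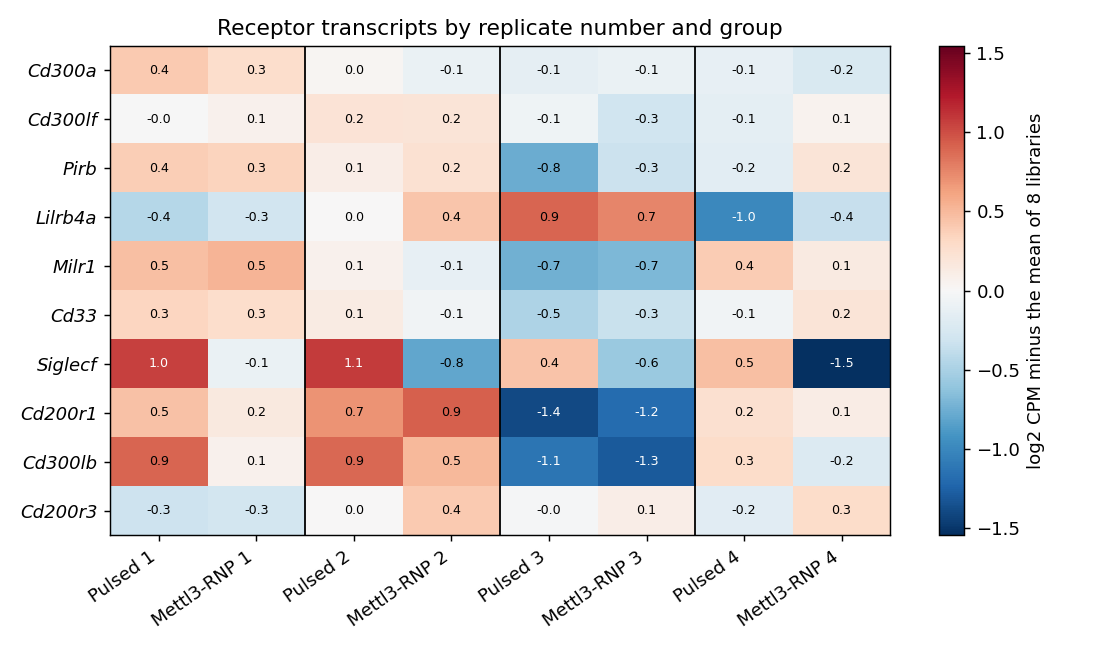
Log2 CPM of each receptor minus its mean over the 8 libraries (colour and printed value), with libraries in columns ordered by replicate number and group. Replicate 3 is low in both groups for Cd200r1, Cd300lb, Milr1, Pirb and Cd33 and high for Lilrb4a, whereas Siglecf differs within every pair.

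The pattern over the 8 libraries was also compared between genes, as Pearson's r of log2 CPM over the 11984 genes that averaged at least 1 CPM. The 8 libraries are treated as 4 pairs and are not independent points, so these values describe the libraries and carry no test. Among members, Cd200r1 and Cd300lb had the highest r, 0.94, followed by Pirb and Cd33 with 0.93, while Lilrb4a and Milr1 ran opposite with -0.91. The genes most like Milr1 were Parp16 (r = 0.996) and Lpxn (0.995), and Lilrb4a had Mir22hg (0.992) and its neighbour Lilrb4b (0.986). Those nearest to Siglecf were Psme4 (0.979) and Pdcd4 (0.966). For Cd300a they were 1600020E01Rik (0.993) and Gm47599 (0.971), for Cd33 Fam53a (0.989) and Trim46 (0.985), and for Pirb Fam53b (0.986) and Sptlc2 (0.981). Cd200r3 was nearest to Nt5c3 (0.986) and Rock2 (0.977), and Cd200r1 to Mpp1 (0.976) and 2700097O09Rik (0.9747). Cd300lb was nearest to Fitm2 (0.971) and D930048N14Rik (0.971), and Cd300lf to Gm34220 (0.945) and Gm45191 (0.940).

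Around these receptors stand their relatives, their signalling partners and their ligands. Of 43 such genes tested outside the 10 members, 4 passed an adjusted p of 0.05, 3 lower and 1 higher, beside 3.74% of all tested genes. Among relatives in the same families, 1 of 8 tested fell, Cd300c, an activating Cd300 receptor. It went from 7.19, 4.38, 2.21 and 2.35 CPM in Pulsed 1 to 4 to 1.94, 2.24, 0.935 and 1.22 CPM in Mettl3-RNP 1 to 4. The groups overlapped in a narrow band, and the log2 fold change was -1.27 (SE 0.221, adjusted p = 0.0285). The median of that list was -0.39. Of 10 other inhibitory receptors tested, with a median of 0.04, Pilra, an ITIM receptor for sialylated glycoproteins, fell from 41.5 ± 16.4 to 19.3 ± 11.2 CPM (SD, n = 4). Its log2 fold change was -1.16 (SE 0.159, adjusted p = 0.0165). Fcgr2b, the inhibitory IgG receptor, had a log2 fold change of 0.28 (adjusted p = 0.193) and Sirpa, the receptor for CD47, one of 0.24 (adjusted p = 0.0799).

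Among 13 tested genes of inhibitory signalling, with a median of 0.03, Dok3 rose. Dok3, an adapter that restrains immunoreceptor signals, went from 134 ± 13.0 to 180 ± 13.4 CPM (SD, n = 4), with no overlap of the groups. Its log2 fold change of 0.43 (SE 0.067, adjusted p = 0.0207) was under 1.5-fold. The phosphatases to which ITIMs bind did not pass: the log2 fold change was -0.45 for Ptpn6 (adjusted p = 0.0665), -0.10 for Ptpn11 (adjusted p = 0.441) and 0.16 for Inpp5d (adjusted p = 0.228). Dok2, the partner of Cd200r1, had 0.42 (adjusted p = 0.0701).

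None of the 6 activating adapter genes passed by edgeR, where 3 had an unadjusted p under 0.05. By DESeq2 1 passed at adjusted p. Neither count has a matching share of all tested genes given here. Tyrobp, the adapter of Cd300lb and Cd200r3, averaged 369 ± 37.0 CPM in Pulsed and 305 ± 58.6 CPM in Mettl3-RNP BMMCs (SD, n = 4), with a log2 fold change of -0.29 (adjusted p = 0.0799). Fcer1g, the common Fc receptor gamma chain, had -0.17 (adjusted p = 0.204), and Hcst, which encodes DAP10, had 0.05 (adjusted p = 0.864). Of the 6 ligand genes tested, B2m alone passed, and the median of the list was -0.13. Without replicate 2 none of Cd300c, Pilra, Dok3 and B2m passed by edgeR, with adjusted p from 0.076 to 0.169. Of the 43 genes 13 had an unadjusted p under 0.05 there, a count with no matching share of all tested genes given here. The log2 fold changes of Cd300c, Pilra, Dok3 and B2m in that fit were -1.39, -1.06, 0.41 and -0.33. Cd300c was also lost without replicate 1 (adjusted p = 0.0701), Dok3 without replicate 1 or 4 (adjusted p of 0.071 and 0.0931) and B2m without any 1 of the numbers, and none of the 4 passed without the replicate block.

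**Figure D4:**
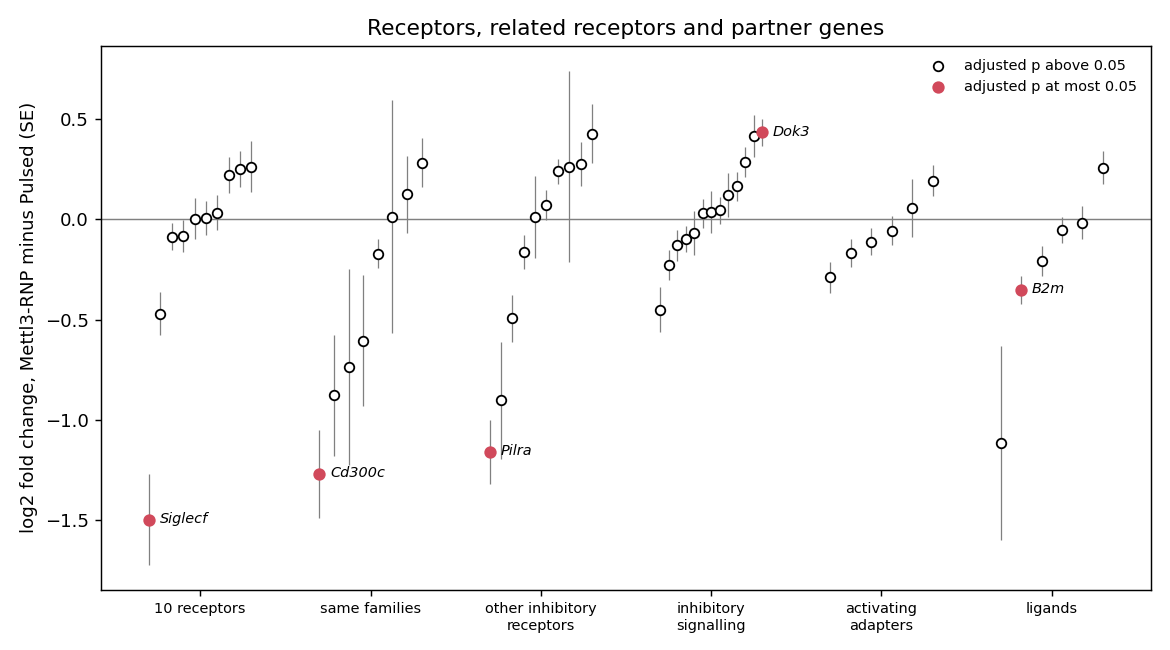
Fitted log2 fold change and its SE for the 10 receptors, for relatives in the same families, for other inhibitory receptors, for genes of inhibitory signalling, for activating adapters and for ligands; filled symbols have an adjusted p of at most 0.05. Siglecf at -1.497, Cd300c at -1.27, Pilra at -1.16 and B2m at -0.35 lie below 0, and Dok3 at 0.43 lies above.

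Markers of other cell types that a marrow culture can hold were low for neutrophils, lymphocytes and dendritic cells and mixed for basophils. All 8 neutrophil genes were below 1 CPM in every library, with 5 of them at 0 counts throughout. The 7 lymphocyte genes summed to at most 1.59 CPM, with Cd3d and Ms4a1 at 0 counts in every library. A dendritic cell list of 8 genes summed to 4.46 to 11.3 CPM in Pulsed and 2.88 to 8.35 CPM in Mettl3-RNP BMMCs with Cd209a at 0, and 3 of the 8 were tested. H2-Ab1 was called lower at -0.78 (adjusted p = 0.049), while Flt3 had a log2 fold change of 1.29 (adjusted p = 0.513) and Zbtb46 one of 0.66 (adjusted p = 0.676). The call on H2-Ab1 was lost without replicate 1, 2 or 3, where its log2 fold change was -0.72, -0.88 and -0.66 (adjusted p from 0.0951 to 0.135). The 7 basophil genes, of which Cd200r3 is one, summed to 2308 to 3434 CPM in Pulsed and 1881 to 2521 CPM in Mettl3-RNP BMMCs. Most of that sum was Ifitm1, at 1677 to 2651 CPM in Pulsed, and Cd200r3, whereas the basophil protease Mcpt8 was at 0.511 to 4.02 CPM and Itga2 at 0.114 to 0.73 CPM over all libraries. In the fit 2 of the 7 were higher, Cd200r3 and Il3ra (0.18, adjusted p = 0.29), and 5 lower, of which Il18rap (-0.79, adjusted p = 0.0324) and Ifitm1 (-0.60, adjusted p = 0.0471) were called. Each of these calls was lost in 3 of the 4 fits that left out 1 replicate number, with log2 fold changes there of -0.84 to -0.69 for Il18rap and -0.69 to -0.44 for Ifitm1. Among the mast cell genes Cpa3, carboxypeptidase A3, passed the adjusted test with a fall below 1.5-fold, and did not pass without replicate 2, 3 or 4 (adjusted p from 0.071 to 0.159). The part of any of these cells in the receptor values was not tested.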

How the data were processed

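The authors sequenced poly(A)-enriched libraries and, per the labels, made the deposited counts per Ensembl gene with FastQC 0.11.9, HISAT2 2.2.1 and featureCounts 2.0.1 on GRCm39. Strand and multimapping settings were not given in the sources used here. The study's methods also describe a batch correction, and the tables used here hold whole, uncorrected counts. Counts of all genes were tested with edgeR 4.0.16 in R 4.3.3: filterByExpr (minimum count 10), TMM scaling and the quasi-likelihood test, blocked by replicate number, with Benjamini-Hochberg adjustment over all genes tested. CPM use TMM factors, and log2 CPM a prior count of 2. Pairing by number was inferred: the series names 4 mice, and deviations from the group means correlated at 0.489 to 0.879 between libraries of one number and at most 0.183 otherwise. Nothing in the labels states that a number marks a mouse. Symbols came from GENCODE M39 and matched 98.7% of identifiers. Sequences were read from the same build. Named genes are all 10 members, Mettl3, genes of the pathway lists that passed or that a sentence on a member needs, and the 2 genes with the highest correlation per member; Egr1 and marker genes were added after their values were seen. One gene of the lists is not reported here. The members and lists were chosen with earlier results of these data known. The script was tested on simulated data. Alternatives were DESeq2 1.42.0, limma 3.58.1 (voom, removeBatchEffect), other scalings, filters, thresholds, no block and leaving out each number. A sign-flip permutation test of 4 pairs cannot give a p below 0.125 and is not quoted.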

Additional observations from a re-analysis of the deposited data

Results flagged for a closer look

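Mettl3 stood at 11.1 CPM in Pulsed 3, far from the 24.5 to 26.5 CPM of the other Pulsed libraries by Dixon's test for groups of 4. Of 22 groups of 4 libraries examined, 1 stood out in this way, where chance gives about 1.10.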

How the results depend on the processing

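Without the replicate block edgeR called 0 of 10 members, 0 of all genes and 0 pathway genes, with 1 member, 579 of all genes and 4 pathway genes at an unadjusted p under 0.05. Siglecf was then at -1.45 (adjusted p = 0.722) and over all alternatives between -1.66 and -1.34 (adjusted p from 1.13e-07 to 0.722). It passed in every alternative but that one and the fit without replicate 2. Leaving out 1 replicate number at a time gave 0 to 1 members and 26 to 331 of all genes past both thresholds. At adjusted p alone it gave 0 to 2 members and 0 to 4 pathway genes. Without replicate 2 no member passed, with 2 members at an unadjusted p under 0.05. Past both thresholds the count of members was 1 in the main fit. It was also 1 with every gene that had a count, with at least 10 counts per library, by DESeq2, by voom and after removeBatchEffect. At adjusted p alone it was 1 in the main fit and 2, 2, 3, 2 and 4 in those settings, in that order. The removeBatchEffect fit takes no account of the degrees of freedom spent. Past both thresholds 308 of all genes were called, against 579 with no filter, 411 with at least 10 counts per library, 505 by DESeq2 and 347 by voom. The number was 973 after removeBatchEffect and 111 at a 2-fold limit. At adjusted p alone 4 pathway genes passed, against 10 by DESeq2 and 22 after removeBatchEffect. Shares of all genes at adjusted p alone, or at unadjusted p without replicate 2, are not given for these alternatives. Those counts therefore have no matching background. Members near 0 changed sign: leaving out 1 replicate number gave -0.048 (without replicate 1) to 0.085 for Cd300lf, -0.027 (without replicate 4) to 0.099 for Cd33 and -0.083 (without replicate 2) to 0.067 for Cd200r1. Cd300lf was negative also without replicate 4 (-0.046), Cd33 without replicate 3 (-0.00073), and Cd200r1 without replicate 3 (-0.065), without the block (-0.0043) and by voom (-0.0073). Of 120 member results under alternatives, 101 kept direction and side of the threshold. Cd300lb passed at adjusted p in 6 of its alternatives, Cd200r3 in 2 and Pirb in 1, after removeBatchEffect (adjusted p = 0.0321). The causes were not tested. Siglecf rests on 30 to 201 counts per library.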
